A study of Mus musculus with 21 samples.

Results

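The mitosis genes described here are 55 genes whose products drive or carry out chromosome segregation and cell division. They were chosen by gene symbol from the annotation that pairs probe sets, the groups of probes that report 1 transcript, with genes. Where a gene had several probe sets, the one with the highest mean over all arrays was taken. Of the 55 genes, 54 were measured among 19938 genes with a single symbol, and Ccnb1 (cyclin B1), which no probe set carried as its only symbol, was not analysed here. The 54 genes fell into 7 roles: 10 mitotic kinases, cyclins and entry regulators, 10 genes of the kinetochore, centromere and passenger complex, 4 of the spindle checkpoint, 6 of anaphase, ubiquitination and cohesion, 12 spindle motors and microtubule proteins, 4 of chromosome structure, and 8 of the central spindle and cytokinesis.

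The samples were RNA of the right lung of male C57BL/6 mice, taken with the left lung in place or after its surgical removal (left pneumonectomy), which is followed by enlargement of the remaining lobes. There were 7 conditions, day 0 with no pneumonectomy, days 3, 7, 14, 28 and 56 after left pneumonectomy, and sham surgery at day 56. Medial lobe, cardiac lobe and whole right lung were each hybridised to 1 Affymetrix array per condition, so n = 3 arrays per condition and 21 in all. All mice were of that sex and strain, the labels name no transgene or drug, and ages are not stated. No sham surgery was measured at the early days, so days 3 and 7 were set against day 0 and against day 56 sham. Whether the 3 arrays of a condition share animals, come from separate animals or from pools is not in the labels, nor whether a whole lung contained the lobes profiled beside it. The p-values therefore measure only the spread between these samples, which may be partly technical. In the fit with terms for condition and region, this spread also takes in any difference between regions in how they changed.

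In a dividing cell, cyclin-dependent kinase and Polo and Aurora kinases start mitosis, the spindle captures chromosomes at their kinetochores, and the checkpoint holds back the anaphase-promoting complex until all are attached. That complex then has securin and cyclins degraded, sister chromatids separate, and the central spindle directs the cleavage furrow. Transcripts of these genes are low in resting cells and accumulate towards mitosis, which makes them a common readout of proliferation in a tissue such as the adult lung, where few cells divide. Many are repressed in resting cells by the DREAM complex and activated later by B-Myb and FoxM1, through the CHR element (cell cycle genes homology region) and CCAAT boxes, bound by NF-Y, in their promoters.

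Since nearly all members rose at day 3, their promoters are shown, for the gene of each role with the largest fitted day 3 difference among those with a CHR element in the stretch printed, and for Ccnb2 in addition. Each runs 5′ to 3′ from 120 bases before to 30 bases after the gene's start in RefSeq, on build GRCm38.p6. CHR elements and CCAAT boxes on either strand are in capitals (a CCAAT box on the other strand reads ATTGG). The stretch of Prc1 is chr7:80294331-80294480 on the plus strand. All the others lie on the minus strand: Ckap2 at chr8:22185790-22185939, Mki67 at chr7:135716350-135716499, Cdk1 at chr10:69352883-69353032, Ccnb2 at chr9:70421525-70421674, Bub1 at chr2:127831830-127831979, Spc25 at chr2:69206184-69206333 and Cdc20 at chr4:118437314-118437463.
Prc1: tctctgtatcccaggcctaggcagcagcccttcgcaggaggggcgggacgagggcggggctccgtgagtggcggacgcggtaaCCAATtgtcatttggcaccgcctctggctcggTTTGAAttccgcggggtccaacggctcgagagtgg
Ckap2: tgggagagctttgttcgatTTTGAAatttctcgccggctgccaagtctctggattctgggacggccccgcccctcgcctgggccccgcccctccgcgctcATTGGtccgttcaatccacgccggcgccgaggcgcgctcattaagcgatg
Mki67: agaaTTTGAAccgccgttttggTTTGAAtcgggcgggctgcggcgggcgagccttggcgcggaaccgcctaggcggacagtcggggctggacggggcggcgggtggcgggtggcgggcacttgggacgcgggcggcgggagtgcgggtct
Cdk1: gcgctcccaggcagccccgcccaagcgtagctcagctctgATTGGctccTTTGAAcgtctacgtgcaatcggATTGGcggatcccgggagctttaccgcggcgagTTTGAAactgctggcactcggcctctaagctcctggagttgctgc
Ccnb2: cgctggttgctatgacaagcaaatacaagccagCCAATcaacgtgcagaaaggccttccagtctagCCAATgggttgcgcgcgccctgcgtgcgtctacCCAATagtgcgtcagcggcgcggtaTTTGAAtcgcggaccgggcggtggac
Bub1: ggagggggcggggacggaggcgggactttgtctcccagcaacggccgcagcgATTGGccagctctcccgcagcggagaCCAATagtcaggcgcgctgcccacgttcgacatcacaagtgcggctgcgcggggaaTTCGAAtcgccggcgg
Spc25: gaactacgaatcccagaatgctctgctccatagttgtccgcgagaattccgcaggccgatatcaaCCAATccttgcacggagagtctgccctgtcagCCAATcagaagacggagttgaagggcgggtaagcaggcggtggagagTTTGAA
Cdc20: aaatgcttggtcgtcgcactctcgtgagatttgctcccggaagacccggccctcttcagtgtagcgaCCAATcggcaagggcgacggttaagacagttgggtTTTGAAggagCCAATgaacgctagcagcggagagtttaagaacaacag

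In the Ccnb2 promoter the CHR element began at base 5 after the start and the CCAAT boxes at -87, -54 and -21. In Bub1 and Spc25 the CHR element likewise lay after the start, at 15 and 25, with CCAAT boxes at -68 and -42 and at -55 and -23. In Prc1 it began at -5, with a CCAAT box at -37. Cdk1 held 2 CHR elements, at -71 and -15, and Cdc20 held 1 at -18 between CCAAT boxes at -53 and -8. Ckap2 and Mki67 had theirs further upstream, at -101 in Ckap2 and at -116 and -98 in Mki67, and the printed stretch of Mki67 held no CCAAT box.

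Promoter windows from 250 bases before to 50 after the start were found for 45 of the 54 members by symbol, 48 windows in all because 3 members had 2. The letters searched on both strands were TTTGAA and TTCGAA for the CHR element, CCAAT for the CCAAT box, and TTTCCCGC, TTTCGCGC, TTTGCCGC and TTTGGCGC for E2F sites. Shares are of genes with a match in any of their windows, beside those of all 15614 measured genes with a window. A CHR element was present for 36 of 45 members (80.0%) against 19.0% of measured genes, and a CCAAT box for 32 (71.1%) against 41.7%. Both were present for 30 members (66.7%) against 7.69%, and 21 members (46.7%) had at least 2 CCAAT boxes in a window against 14.3%. The E2F letters were found for 3 members (6.67%) against 3.48%. A CHR element began within 50 bases of the start for 32 members (71.1%) against 5.0% of measured genes. The nearest element of each member had a median position of 3.5 bases after the start (range -228 to 41). Only 1 pair of matches of different motifs overlapped. Neither the CHR nor the CCAAT letters were found for 7 members, Birc5, Mad2l1, Melk, Ncaph, Nuf2, Nusap1 and Pttg1. A match is a description of the letters and shows no binding.

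**Figure D1:**
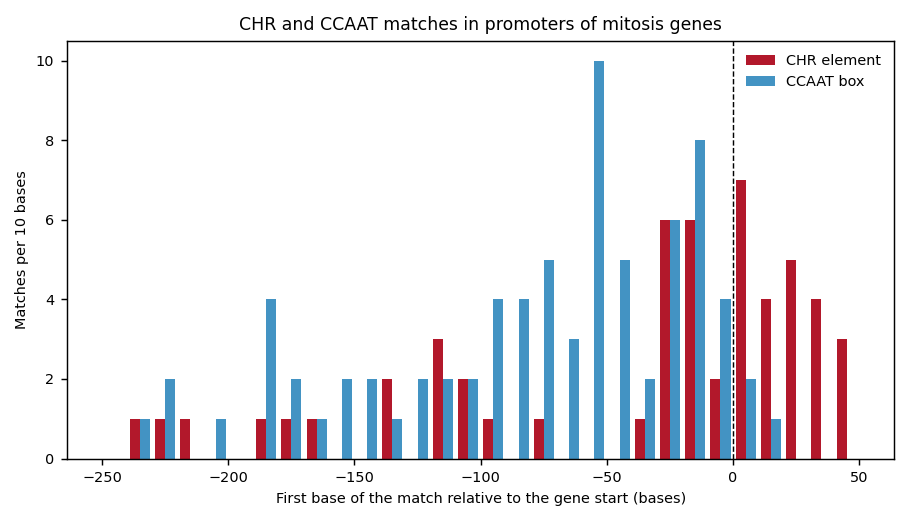
Positions of the 53 CHR matches (red) and 76 CCAAT matches (blue) in the 48 promoter windows of 45 mitosis genes; the x axis is the first base of the match relative to the gene start (dashed line) in bases, and the y axis is the number of matches per 10 bases. CHR matches gather around the start and CCAAT boxes mostly before it.

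The arrays carried the lung: the mean log2 value of 8 epithelial markers (among them Sftpc, Ager and Scgb1a1) lay between 11.62 and 12.09 on all 21 arrays. Array medians ran from 5.98 to 6.18. A pair of arrays stood apart by the interquartile range of their log2 values, the cardiac lobe at day 7 (3.55, other cardiac lobes 3.73 to 3.86) and the whole lung at day 56 after pneumonectomy (3.39, other whole lungs 3.51 to 3.76). Counts at days 3 and 7 against day 0 and between the whole lung and the lobes are also given without this pair. Other counts that rest on the pair are not. The members' mean log2 values over 21 arrays ran from 4.54 to 9.03, with 37 of 54 below the median of all gene means (6.98), and no detection calls were used here.

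At day 3 after pneumonectomy nearly all mitosis genes were higher. Of 54 members 52 rose against day 0 and none fell, while 3.97% of all genes were called higher and 2.73% lower (limma, Benjamini-Hochberg adjusted p under 0.05 over 19938 genes). The median member difference was 1.28 on the log2 scale, or 2.42-fold, against 0.01 for all genes, and the 52 ranged from 0.64 to 1.95, or 1.56-fold to 3.87-fold. For 52 members the 3 arrays of day 3 all lay above the 3 of day 0, against 15.4% of all genes, and 1 member, Pttg1, lay wholly below, against 12.1%. Among the 100 largest differences upward of all genes 22 were members, and among the largest 500 there were 50. At day 7, 47 members rose and none fell (3.73% of all genes called higher, 4.97% lower), with a median difference of 1.0, or 2.0-fold. Leaving out the day 7 cardiac lobe and the day 56 whole lung gave 52 members at day 3 and 46 at day 7. Fits to fewer arrays gave smaller counts: 34 at day 3 and 12 at day 7 from only the 6 arrays compared, 14 and 23 from the lobes alone, and at day 7, 26 without the day 0 cardiac lobe and 29 without the day 0 whole lung. The shares of all genes called in these alternative fits are not given here. Whether fewer genes passed in general is therefore not shown.

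**Figure D2:**
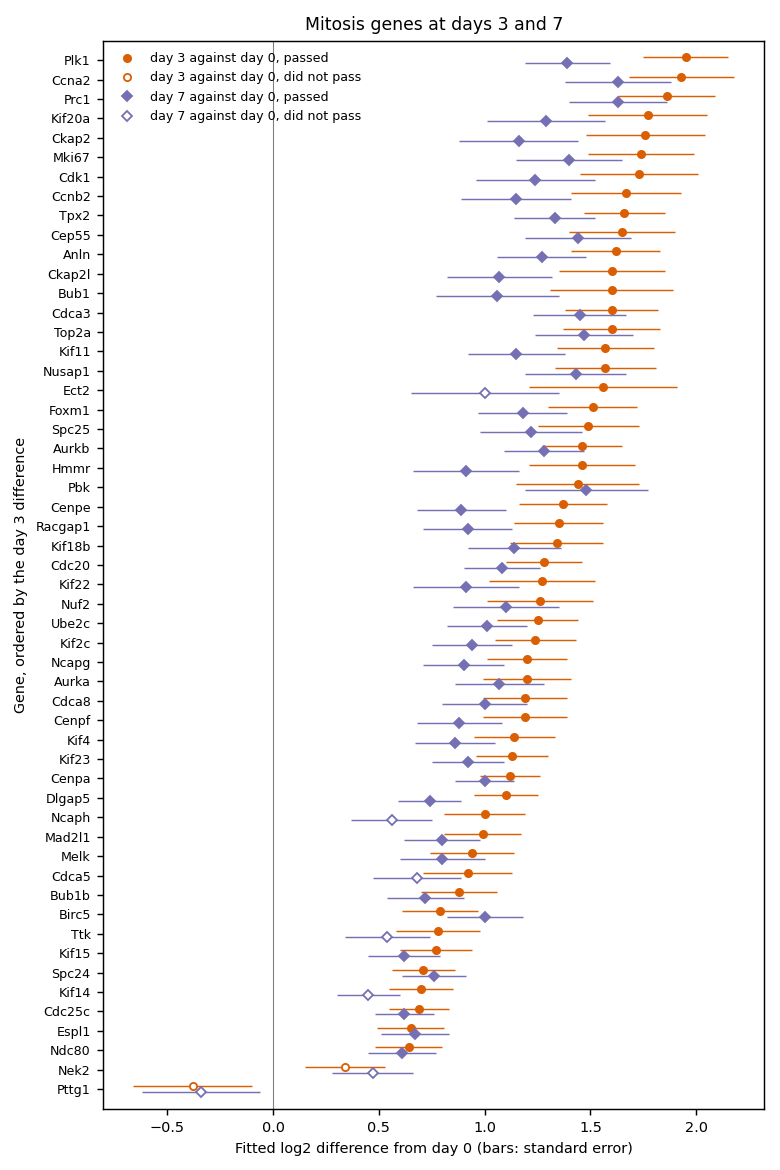
Fitted log2 difference from day 0 of each of the 54 measured mitosis genes at day 3 (orange circles) and day 7 (purple diamonds), ordered by the day 3 difference, with bars of 1 standard error; open symbols did not pass at an adjusted p under 0.05. At day 3 all but Nek2 and Pttg1 passed, and at day 7 all but 7.

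Among the mitotic kinases, cyclins and entry regulators, 9 of 10 rose at day 3, with a median over the 10 of 1.48, and 9 of 10 at day 7. Plk1, the Polo-like kinase that acts from mitotic entry to cytokinesis, had log2 values at day 0 of 7.05 in the medial lobe, 7.31 in the cardiac lobe and 6.93 in the whole lung, and at day 3 of 8.34, 9.63 and 9.18. All 3 day 3 values were above all 3 of day 0, and the cardiac lobe was the highest. The fitted difference was 1.95 ± 0.20 (SE), 3.87-fold (adjusted p = 3.9e-05, limma), the largest among the members. At day 7 Plk1 stood at 8.62, 8.61 and 8.22 in the same order of regions, at day 14 at 7.35, 7.24 and 7.24, at day 28 at 6.69, 6.73 and 6.28, at day 56 at 6.50, 6.60 and 6.39, and after sham surgery at 6.64, 7.07 and 6.44. Every day 7 array thus lay above every array of day 0 and of the later days.

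Ccna2 encodes cyclin A2, which works with Cdk in DNA synthesis and at mitotic entry. Its values went from 7.46, 7.73 and 7.17 (medial, cardiac, whole) at day 0 to 8.65, 10.01 and 9.47 at day 3 and 9.31, 9.11 and 8.84 at day 7. Days 3 and 7 both lay wholly above day 0 and overlapped each other, and the differences from day 0 were 1.93 ± 0.25 at day 3 (adjusted p = 0.000288) and 1.63 ± 0.25 at day 7 (adjusted p = 0.00179). Cdk1, the kinase that brings cells into mitosis, was at 7.73, 7.91 and 7.46 at day 0, 8.66, 10.11 and 9.53 at day 3, and 9.28, 8.59 and 8.95 at day 7. It rose 3.32-fold at day 3 (1.73 ± 0.28, adjusted p = 0.00137) and 2.36-fold at day 7. Its partner Ccnb2, a B-type cyclin, rose 3.18-fold and 2.22-fold, and Foxm1, the transcription factor of many late cell cycle genes, 2.85-fold and 2.27-fold. Aurka, the kinase of the spindle poles, rose 2.30-fold at day 3, and Cdc25c, a phosphatase that activates Cdk1, rose 1.62-fold.

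Nek2, a kinase that separates the centrosomes, did not pass against day 0 on either day. Its day 0 values were 7.56, 7.09 and 7.17, its day 3 values 7.13, 8.09 and 7.63, and its day 7 values 7.90, 7.78 and 7.54. The medial lobe was lower at day 3 than at day 0 and the other regions higher, so the groups overlapped (0.34 ± 0.19, adjusted p = 0.372; day 7, 0.47 ± 0.19, adjusted p = 0.128). Against day 56 sham, where Nek2 stood at 7.21, 6.86 and 6.46, it was higher on both days (0.77 ± 0.19, adjusted p = 0.0217, and 0.90 ± 0.19, adjusted p = 0.0148, limma). At day 3 the medial lobe lay below that of sham, so those groups overlapped, while the day 7 arrays all lay above sham.

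All 12 spindle motors and microtubule proteins rose on both days, with a median of 1.40 at day 3. Ckap2, which stabilises spindle microtubules, was at 5.59, 5.66 and 5.41 at day 0, 6.39, 8.33 and 7.23 at day 3 and 6.85, 6.60 and 6.70 at day 7. The cardiac lobe at day 3 was the highest of the 9 values, 2.67 above its own day 0. The fitted rise was 1.76 ± 0.28 (adjusted p = 0.00125). Tpx2, which activates Aurora A on the spindle, was at 6.29, 6.32 and 6.07 at day 0, 7.18, 8.54 and 7.95 at day 3 and 7.50, 7.75 and 7.43 at day 7. Neither later group overlapped day 0, and Tpx2 rose 3.16-fold at day 3 (1.66 ± 0.19, adjusted p = 9.95e-05). Ckap2l, a relative of Ckap2, went from 6.61, 6.35 and 6.47 to 7.19, 8.75 and 8.28 and then 7.55, 7.49 and 7.60, and rose 3.03-fold at day 3. The kinesin Kif11, which pushes spindle poles apart, rose 2.96-fold, Kif2c, a microtubule depolymerase, 2.36-fold, the chromokinesins Kif4 and Kif22 2.20-fold and 2.41-fold, and Kif15, which can stand in for Kif11, 1.70-fold.

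The central spindle and cytokinesis genes had the highest median of the 7 roles at day 3, 1.59, and all 8 rose. Prc1, which bundles the microtubules between the separating chromosomes, was at 6.10, 6.54 and 5.79 at day 0, 7.28, 8.71 and 8.03 at day 3 and 7.76, 7.94 and 7.62 at day 7. Both later groups lay wholly above day 0, with rises of 1.86 ± 0.23 (adjusted p = 0.000156) and 1.63 ± 0.23 (adjusted p = 0.00101). Kif20a, a kinesin of the cleavage stage, went from 6.07, 5.98 and 5.85 to 6.85, 8.45 and 7.90 at day 3 and 7.59, 7.16 and 7.03 at day 7, a rise of 3.40-fold and then 2.45-fold over day 0. Cep55, which recruits the abscission machinery, went from 5.17, 5.44 and 5.16 to 6.13, 7.70 and 6.91 and then 6.63, 7.19 and 6.26, and rose 3.15-fold and 2.70-fold. The centralspindlin subunits Kif23 and Racgap1 rose 2.18-fold and 2.55-fold at day 3 and both 1.89-fold at day 7, and Anln (anillin), a scaffold of the contractile ring, rose 3.08-fold and 2.42-fold.

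At day 7, 6 of these 8 passed. Ect2, which activates RhoA at the furrow, was at 7.05, 7.06 and 6.66 at day 0, 7.76, 9.35 and 8.35 at day 3 and 8.51, 7.13 and 8.13 at day 7. The cardiac lobe had come back to 0.06 above its day 0 by day 7 while the other regions had not. It rose at day 3 (1.56 ± 0.35, adjusted p = 0.0124) and did not pass at day 7 (1.0 ± 0.35, adjusted p = 0.0828). The low value is that of the cardiac lobe array that stood apart, and the Ect2 result without that array is not given here. Kif14, a kinesin of cytokinesis, was at 4.86 in all 3 regions at day 0, 5.07, 5.90 and 5.70 at day 3 and 5.25, 5.52 and 5.17 at day 7. It rose 1.62-fold at day 3, and its day 7 difference of 0.45 ± 0.15 had an adjusted p of 0.0634. A second probe set of Kif14, with a lower mean, differed by 0.05 at day 3.

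Chromosome structure genes all rose at day 3 (4 of 4, median 1.40) and 3 of 4 rose at day 7. Mki67, the proliferation marker that coats mitotic chromosomes, was at 7.27, 7.45 and 7.06 at day 0, 8.31, 9.59 and 9.11 at day 3, 8.47, 8.83 and 8.67 at day 7 and 7.69, 7.42 and 7.05 at day 14. At days 28 and 56 it was at 6.94, 7.01 and 6.44 and at 6.66, 6.61 and 7.11, and after sham surgery at 7.31, 7.18 and 6.68. Days 3 and 7 lay above every other array (1.74 ± 0.25, adjusted p = 0.000612, and 1.40 ± 0.25, adjusted p = 0.00493). Top2a, the topoisomerase that untangles sister chromatids, went from 6.73, 7.16 and 6.48 to 7.72, 9.0 and 8.44 at day 3 and 8.21, 8.40 and 8.16 at day 7, a rise of 3.02-fold and 2.77-fold. A second probe set of Top2a with a mean of 3.76 over all arrays differed by -0.05 at day 3 and so did not show the rise. The probe set used had a mean of 7.01, and the lower quartile of all gene means was 5.03. Whether the dim probe set carried signal was not tested.

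Ncapg, a condensin I subunit, was at 4.79, 4.91 and 4.66 at day 0, 5.43, 6.74 and 5.79 at day 3 and 5.65, 5.84 and 5.58 at day 7, and rose 2.29-fold and 1.87-fold. Its partner Ncaph was at 6.72, 7.08 and 6.44 at day 0, 7.34, 8.26 and 7.64 at day 3 and 7.69, 7.10 and 7.15 at day 7. These subunits of the same complex both rose at day 3, whereas at day 7 Ncaph did not pass (0.56 ± 0.19, adjusted p = 0.0683), again with its cardiac lobe value only 0.02 above day 0; the difference between them was not tested.

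All 10 kinetochore, centromere and passenger complex genes rose on both days, with a median of 1.19 at day 3. Spc25, a subunit of the Ndc80 complex that holds microtubules, was at 5.83, 5.57 and 5.42 at day 0, 6.77, 8.02 and 6.49 at day 3 and 6.64, 7.28 and 6.57 at day 7. It rose 2.80-fold at day 3 (1.49 ± 0.24, adjusted p = 0.00126), with the highest value in the cardiac lobe. The other subunits of that complex rose less far by their fitted values, Nuf2 2.39-fold, Spc24 1.64-fold and Ndc80 1.56-fold; these differences between subunits were not tested. Aurkb, the kinase of the chromosomal passenger complex, was at 7.47, 7.60 and 7.21 at day 0, 8.35, 9.45 and 8.86 at day 3 and 8.64, 9.07 and 8.42 at day 7. Neither later group overlapped day 0 (1.46 ± 0.19, adjusted p = 0.000265; 1.28 ± 0.19, adjusted p = 0.00131). Its partners Cdca8 (borealin) and Birc5 (survivin) rose 2.27-fold and 1.73-fold at day 3 and both 2.0-fold at day 7. Cenpe, a kinetochore motor, went from 4.64, 4.89 and 4.49 to 5.30, 6.80 and 6.04 and then 5.60, 5.61 and 5.47, a rise of 2.58-fold and 1.85-fold. Cenpa, the histone variant that marks the centromere, rose 2.17-fold and 2.01-fold.

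The spindle checkpoint genes had a median of 0.93 at day 3, where all 4 rose, and 3 of 4 rose at day 7. Bub1, a checkpoint kinase, was at 6.21, 6.35 and 5.60 at day 0, 6.89, 8.57 and 7.51 at day 3 and 7.65, 6.85 and 6.85 at day 7. It rose 3.03-fold at day 3 (1.60 ± 0.29, adjusted p = 0.00315) and 2.08-fold at day 7 (adjusted p = 0.035). Mad2l1, which blocks Cdc20, was at 8.55, 8.41 and 8.27 at day 0, 9.01, 9.98 and 9.22 at day 3 and 9.52, 9.16 and 8.95 at day 7, and rose 1.99-fold and 1.74-fold. Bub1b, its partner in the checkpoint complex, went from 7.03, 7.04 and 6.65 to 7.26, 8.30 and 7.78 and then 7.54, 7.96 and 7.38. The medial lobe moved least at day 3, and Bub1b rose 1.84-fold and 1.65-fold. Ttk, the kinase at the head of the checkpoint, was at 4.38, 4.32 and 4.36 at day 0, 4.53, 5.87 and 5.02 at day 3 and 4.89, 5.09 and 4.69 at day 7. It passed at day 3 (0.78 ± 0.20, adjusted p = 0.0233) and not at day 7 (0.54 ± 0.20, adjusted p = 0.0921), although all 3 day 7 arrays lay above day 0.

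In the anaphase, ubiquitination and cohesion role 5 of 6 rose at day 3 (median over the 6, 1.09) and 4 of 6 at day 7. Cdca3, a protein that promotes mitotic entry through ubiquitination, was at 6.48, 6.55 and 6.37 at day 0, 7.46, 8.71 and 8.04 at day 3 and 8.11, 8.24 and 7.40 at day 7, and rose 3.04-fold and 2.74-fold. Cdc20, the activator of the anaphase-promoting complex, was at 7.04, 7.07 and 6.95, then 7.78, 8.80 and 8.33, then 8.22, 8.24 and 7.83. Its groups did not overlap day 0, with rises of 1.28 ± 0.18 (adjusted p = 0.000554) and 1.08 ± 0.18 (adjusted p = 0.00346). Ube2c, the ubiquitin-conjugating enzyme of that complex, went from 7.01, 7.01 and 6.78 to 7.70, 8.64 and 8.20 and then 8.29, 7.86 and 7.69, and rose 2.37-fold and 2.02-fold. Espl1, the separase that cuts cohesin, rose 1.57-fold and 1.59-fold. Cdca5 (sororin), which protects cohesion, was at 5.48, 5.32 and 5.33, then 5.80, 6.87 and 6.23, then 6.15, 6.44 and 5.58. It rose 1.90-fold at day 3, and at day 7 its difference of 0.68 ± 0.21 had an adjusted p of 0.0556.

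Pttg1 encodes securin, the inhibitor that holds separase until anaphase, and its probe set ran against the rest. Its values were 9.12, 9.18 and 9.25 at day 0, 8.92, 8.71 and 8.79 at day 3, 8.97, 8.61 and 8.96 at day 7, 9.12, 9.07 and 9.44 at day 14 and 9.17, 9.16 and 9.36 at day 28. At day 56 they were 9.21, 9.13 and 7.63 after pneumonectomy and 9.27, 9.18 and 9.48 after sham surgery. All day 3 and day 7 arrays lay below all day 0 arrays, but neither difference passed (-0.38 ± 0.28, adjusted p = 0.516, and -0.34 ± 0.28, adjusted p = 0.405), and the lowest of the 21 values was that of the day 56 whole lung that stood apart. It was the 1 member with no difference called among the 7 conditions (moderated F test of limma, adjusted p = 0.438, 53 of 54 members and 7.76% of all genes called).

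**Figure D3:**
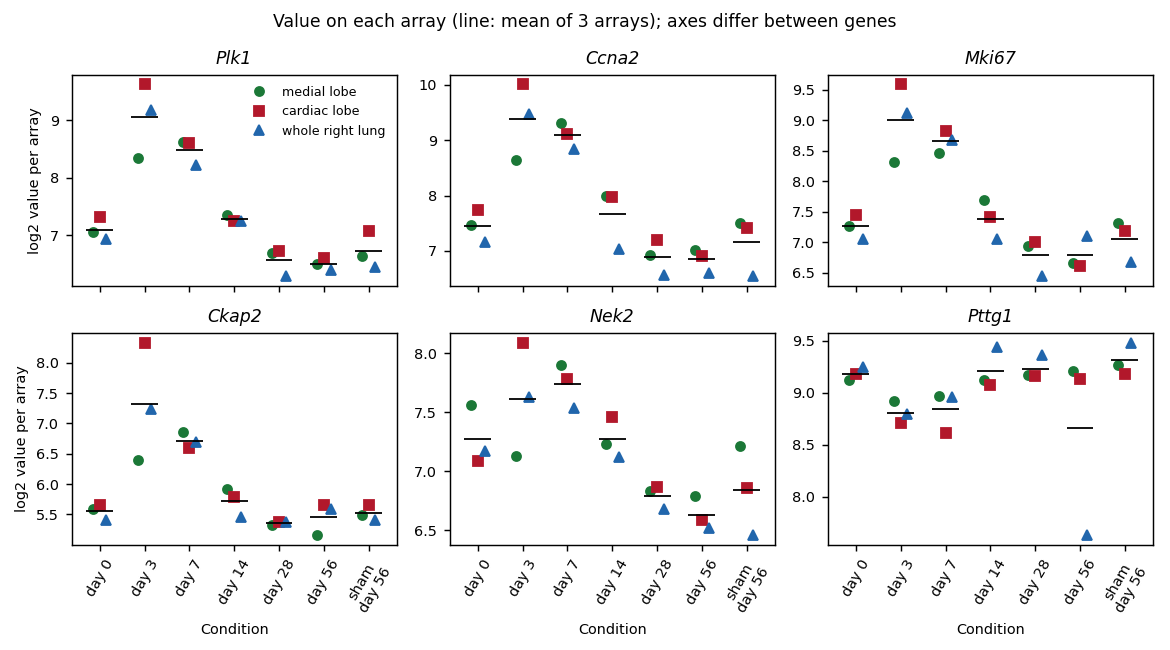
Log2 value on each array of Plk1, Ccna2, Mki67, Ckap2, Nek2 and Pttg1 in the 7 conditions, with green circles for the medial lobe, red squares for the cardiac lobe and blue triangles for the whole right lung; the black line is the mean of the 3 arrays, and the y axes differ between genes. In the first 4 genes the day 3 and day 7 arrays lie above day 0, and in Nek2 and Pttg1 they do not stand clear above it.

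Set against day 56 sham, the operated control, the early days gave these counts. At day 3, 53 members were higher (4.46% of all genes), with a median of 1.38, or 2.60-fold, and at day 7, 46 were higher (2.37% of all genes), with a median of 1.13. The arrays did not overlap, with day 3 above, for 52 members (10.3% of all genes), and with day 7 above for 53 (7.32%). The lobes alone gave 32 members at day 3 and 24 at day 7, and the day 7 count was 28 from the 6 arrays compared and 30 without the sham cardiac lobe. Those counts, too, stand without the share of all genes called in the same fits. Between day 56 sham and day 0 no member passed (0.381% of all genes, median -0.10). At an unadjusted p under 0.05 were 1 member and 1856 of 19938 genes (limma).

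By day 14 the set had come down. Against day 7, 21 of 54 members fell (0.512% of all genes called lower), with a median of -0.87 over the 54, or 0.548-fold, and 51 were lower in each of the 3 regions. In that step 47.5%, 48.3% and 49.3% of all genes were higher in the medial lobe, cardiac lobe and whole lung. The arrays of day 14 lay wholly below those of day 7 for 50 members, against 6.9% of all genes. The 21 were 6 of 12 spindle proteins, 4 of 8 central spindle genes, 3 of 10 kinetochore genes, 3 of 6 anaphase genes, 2 of 10 kinases and cyclins, 2 of 4 chromosome genes and 1 of 4 checkpoint genes. Ccna2 fell most, by 1.42 ± 0.25 (adjusted p = 0.0185), to 8.0, 7.97 and 7.04 in the medial lobe, cardiac lobe and whole lung, and Top2a fell by 1.41 ± 0.23 (adjusted p = 0.0139) to 7.06, 7.01 and 6.47. Prc1 fell by 1.37 ± 0.23 (adjusted p = 0.0152) to 6.53, 6.46 and 6.21, and Nusap1, which cross-links spindle microtubules, fell by 1.35 ± 0.24 (adjusted p = 0.0177). This count depended on the model: without the term for region no member passed. It depended on single arrays too, since it was 0 without the day 14 cardiac lobe, 2 without the day 7 medial lobe, 3 without the day 14 whole lung and 10 without the day 14 medial lobe. The step from day 3 to day 7 gave no member (0.0652% of all genes, median -0.24). An unadjusted p under 0.05 was reached by 6 members and by 10.4% of all genes (limma). With the day 3 medial lobe left out, 13 members passed as lower. For the fits without the region term or without single arrays, the share of all genes called is not given here.

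Against day 0, no member passed at day 14 (1.2% of all genes called, median 0.13), and 47 of 54 differences were positive. An unadjusted p under 0.05 was found there for 0 members and 2185 of 19938 genes (limma). The arrays lay wholly above day 0 for 6 members (8.18% of all genes). At day 28 none passed (0.0% of all genes, smallest adjusted p = 0.482, limma), with 7 members and 1439 of 19938 genes at an unadjusted p under 0.05. Of 54 differences 50 were negative, with a median of -0.24, or 0.848-fold. For 21 members the 3 arrays of day 28 lay below all 3 of day 0 (5.54% of all genes), and 40 were lower in all 3 regions. Counts of sign against day 0 and of members lower in all 3 regions have no share of all genes beside them. All members were read from the same arrays. Top2a was at 6.03, 6.09 and 6.02, Plk1 at 6.69, 6.73 and 6.28 and Anln at 6.38, 6.72 and 6.33, each below its lowest day 0 array, with fitted differences of -0.74 ± 0.23, -0.53 ± 0.20 and -0.58 ± 0.21. At day 56 none passed against day 0 (0.0903% of all genes, median -0.18), and 16 lay wholly below, against 6.43% of all genes. An unadjusted p under 0.05 was found there for 6 members and 2832 of 19938 genes (limma).

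From day 14 to day 28 no member passed (0.145% of all genes), with 52 of 54 differences negative, a median of -0.37 and 32 wholly below (5.18% of all genes). At an unadjusted p under 0.05 were 16 members and 1347 of 19938 genes (limma). In that step 48.0%, 46.2% and 49.9% of all genes were higher in the medial lobe, cardiac lobe and whole lung. For pneumonectomy against sham at day 56 no member passed (0.336% of all genes, median -0.07). At an unadjusted p under 0.05 were 1630 of 19938 genes and 2 members (limma). Those 2 were Pttg1 (-0.65 ± 0.28), which rests on the whole lung array that stood apart, and Bub1 (-0.65 ± 0.29), at 5.84, 5.81 and 5.15 after pneumonectomy and 6.36, 6.73 and 5.66 after sham surgery. Day 14 against sham gave no member either (0.0652% of all genes), with 4 members and 1081 of 19938 genes at an unadjusted p under 0.05 (limma). There 53 of 54 differences were positive, a count with no share of all genes beside it. The median was 0.25, and 16 members lay wholly above (3.33% of all genes).

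**Figure D4:**
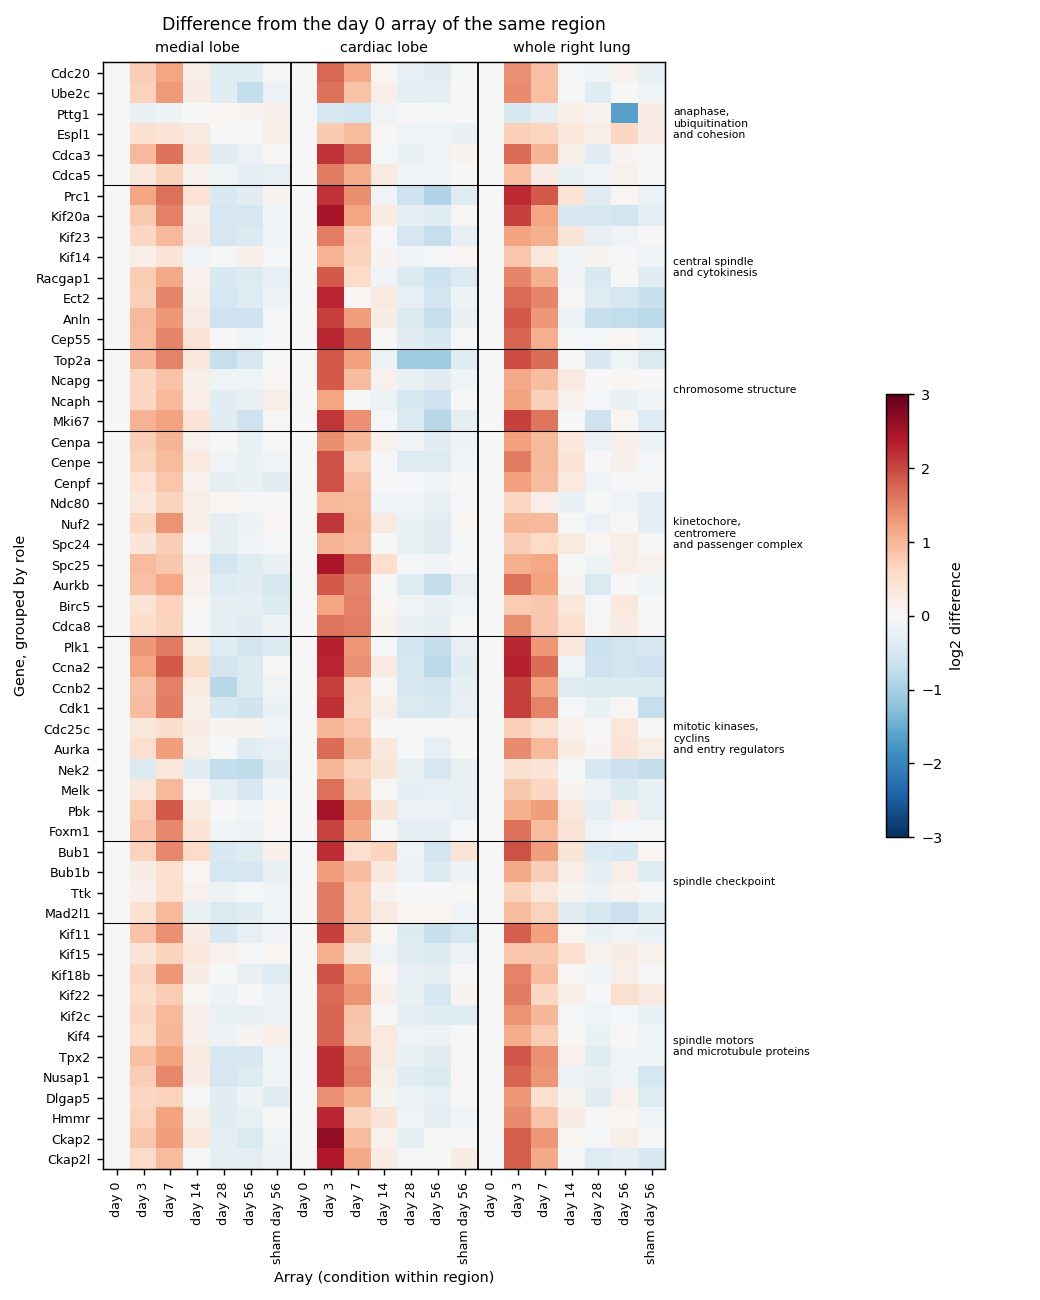
Log2 difference of each array from the day 0 array of the same region (red higher, blue lower) for the 54 measured mitosis genes in rows, grouped by role, and the 7 conditions within each region in columns. Deep red appears only in columns of days 3 and 7, the cardiac lobe is deepest at day 3 and the medial lobe at day 7, and the Pttg1 row shows no red there.

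The regions differed in their course, read here from 1 array per region and day. At day 3 the median member stood 1.84 above day 0 in the cardiac lobe (3.58-fold), 1.41 in the whole lung (2.66-fold) and 0.65 in the medial lobe (1.57-fold). At least 2-fold above day 0 were 50 of 54 members in the cardiac lobe, 41 in the whole lung and 4 in the medial lobe, against 1.84%, 1.97% and 0.587% of all genes. By day 7 the regions had come together, at 0.95 in the cardiac lobe, 0.97 in the whole lung and 1.08 in the medial lobe, with 24, 24 and 28 members at least 2-fold above, against 2.39%, 0.632% and 0.567% of all genes. From day 3 to day 7, 52 of 54 members went higher in the medial lobe, against 52.8% of all genes. In the same step only 2 members went higher in the cardiac lobe and 4 in the whole lung, against 50.9% and 48.3% of all genes, and the others went lower. Over the 6 days without sham, the highest was day 7 for 51 members in the medial lobe, day 3 for 51 in the cardiac lobe and day 3 for 50 in the whole lung, against 19.5%, 14.3% and 18.4% of all genes.

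**Figure D5:**
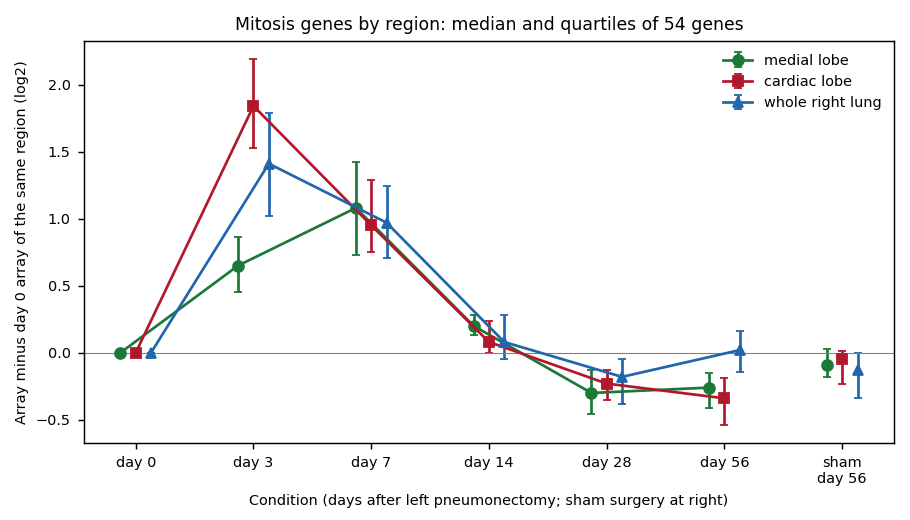
Median over the 54 mitosis genes of the log2 difference from the day 0 array of the same region, by condition, for the medial lobe (green circles), cardiac lobe (red squares) and whole right lung (blue triangles), with 1 array per point; bars span the quartiles over genes and are no replicate error. The cardiac lobe reaches 1.84 and the whole lung 1.41 at day 3, and the medial lobe reaches its highest value, 1.08, at day 7.

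Single members show the size of this. Ckap2 was 2.67 above day 0 in the cardiac lobe at day 3 and 0.80 in the medial lobe, and Plk1 was 2.32 above in the cardiac lobe and 1.29 in the medial lobe, where it was the member furthest above. Pbk, a mitotic kinase, was at 4.65 in the medial lobe at day 0, 5.40 at day 3 and 6.50 at day 7, and in the cardiac lobe at 4.95, 7.44 and 6.27. Ect2 moved furthest between the days in the cardiac lobe, where it dropped by 2.22. Of the arrays that stood apart, the day 7 cardiac lobe enters the drop of that lobe, and the steps of the medial lobe and the whole lung rest on neither.

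The step from day 3 to day 7 was compared between regions in a fit chosen after these values were seen, in which the spread comes from the other 5 conditions and is assumed to hold for days 3 and 7. The step was higher in the medial than in the cardiac lobe for 21 of 54 members (0.371% of all genes called higher, limma), with a median over the 54 of 1.21. Ect2 (2.97 ± 0.28, adjusted p = 0.000896) and Bub1 (2.48 ± 0.24, adjusted p = 0.000896) differed most. This comparison rests on the day 7 cardiac lobe array that stood apart, and 17.8% of all genes had an unadjusted p under 0.05 in it. Without the day 56 whole lung, which enters the spread, 38 members passed, and 1 of the 17 tested passed when genes below the median level were left out. Neither count has its share of all genes beside it. Between the medial lobe and the whole lung, a comparison free of that cardiac array, no member passed (0.0201% of all genes; smallest adjusted p = 0.111), although 43 members and 3.88% of all genes had an unadjusted p under 0.05 and 52 of 54 differences were positive, with a median of 0.85.

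The planned test joined days 3 and 7 as an early phase and day 0 and sham as control, and so averages over the steps above. The early difference was larger in the cardiac than in the medial lobe for 52 of 54 members by fitted value, with a median of 0.54, but no member passed (0.0% of all genes; 12 members and 4.35% of all genes at an unadjusted p under 0.05; smallest adjusted p = 0.964, limma). Standard errors of this difference ran from 0.16 to 0.72, and the largest fitted value was 1.08 ± 0.35, that of Spc25. For the whole lung against both lobes no member passed (0.0% of all genes, median 0.06), with 0 members and 2.24% of all genes at an unadjusted p under 0.05 (limma). Over all conditions no member passed between the cardiac and medial lobes (0.0903% of all genes, median 0.22), with 9 members and 9.42% of all genes at an unadjusted p under 0.05 (limma). The whole lung was lower than the mean of the lobes for 4 members, Bub1, Mad2l1, Ccna2 and Ncaph (-0.65, -0.45, -0.48 and -0.31), a share below the 20.3% of all genes called lower there. That count was 7 lower and 1 higher without the arrays that stood apart, 23 lower without the day 3 medial lobe, and 2 without the whole lung of day 14 or of sham. The share of all genes called in those fits is not given here, so these counts cannot be set against it.

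Members with a CHR element in the promoter window had a median day 3 difference of 1.31 (36 members, 0.64 to 1.95) and those without 0.99 (9 members, -0.38 to 1.57). Both members that did not pass at day 3 were among the latter: the window of Nek2 held a CCAAT box and no CHR element, and that of Pttg1 neither. All the other members without a CHR element passed at day 3, namely Birc5, Cenpe, Mad2l1, Melk, Ncaph, Nuf2 and Nusap1. Their differences ran from 0.79 (Birc5) to 1.57 (Nusap1). These are counts of letters beside fitted differences, with no test.

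Other genes of the same machinery were taken from lists of further components, and those named from a list with no place among its 3 largest were chosen after their values were seen. Of 33 other kinetochore and centromere genes 19 rose at day 3 and 15 at day 7 and none fell, with a median of 0.45 at day 3. Knl1, the scaffold of the outer kinetochore, and the centromere proteins Cenpm and Cenpn led with 1.38 ± 0.22, 1.35 ± 0.19 and 1.28 ± 0.20. Of 27 other spindle, centrosome and cytokinesis genes 14 rose at day 3, led by Depdc1a (1.56 ± 0.26), Aspm, a spindle pole protein (1.35 ± 0.15), and Iqgap3 (1.34 ± 0.20); at day 7, 12 rose and Numa1, which tethers microtubules at the poles, fell by 0.32. Among 15 condensin and cohesin genes 4 rose on each day; at day 3 the 3 largest were the condensin subunits Ncapg2 (1.19 ± 0.23), Ncapd2 (1.13 ± 0.15) and Smc2 (1.09 ± 0.15), and Cdca2 rose too.

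The 14 further genes of the anaphase-promoting complex list had a median of 0.04 at day 3, and only Fbxo5, an inhibitor of that complex, rose (0.72 ± 0.19). Among 17 mitotic entry and cell cycle transcription genes 7 rose at day 3, led by Mastl, a kinase of mitotic entry (1.33 ± 0.28), E2f8 (1.16 ± 0.19) and Cks1b, a Cdk-binding subunit (1.09 ± 0.16), and Lin52, a subunit of DREAM, fell by 0.46; at day 7, 6 rose. The earlier cell cycle was represented by 27 DNA replication genes, of which 17 rose at day 3 and 12 at day 7, led by Rrm2 and Tk1, enzymes of nucleotide supply (1.36 ± 0.20 and 1.15 ± 0.16), and the polymerase Pole (0.99 ± 0.21). Of 19 G1 cyclins, Cdks and inhibitors 1 rose at day 3, Ccne1 (cyclin E1, 0.64 ± 0.12), and at day 7 Ccne1, Ccne2 (cyclin E2) and E2f1 rose and the Cdk inhibitor Cdkn1b fell by 0.48. No gene of these 7 lists passed against day 0 at day 14 or later except Wee1, the kinase that restrains Cdk1, which fell by 1.05 at day 14 and was also lower after sham surgery.

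Markers of cell types moved over the same days, and their counts are against day 0 unless sham surgery is named. Of 9 macrophage and monocyte markers 5 rose at day 3 (Itgam, Ccr2, C1qa, C1qb and C1qc) and the 3 C1q genes at day 7; their mean log2 value was 8.83 to 9.04 on the day 0 arrays, 9.80 to 10.62 at day 3 and 8.92 to 9.92 at day 7. By region the macrophage mean was higher than day 0 by 0.97 in the medial lobe, 0.94 in the cardiac lobe and 1.72 in the whole lung at day 3, and by 0.09, 0.88 and 0.36 at day 7. Of 7 fibroblast and mesenchyme markers the collagens Col1a1, Col1a2 and Col3a1 rose on each day. The means of the 7 were 8.74 to 9.20 at day 0, 9.87 to 10.02 at day 3 and 9.33 to 10.55 at day 7, but at day 7 the other 4 did not pass and 3 of them were slightly lower (Pdgfra 0.21, Dcn -0.04, Tcf21 -0.07 and Pdgfrb -0.23). Of 6 mesothelial markers 4 rose at day 3 (Wt1, Msln, Upk1b and Lrrn4) and 3 at day 7, from means of 10.26 to 10.71 at day 0 to 10.97 to 11.07 at day 3 and 10.58 to 11.05 at day 7.

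Of 8 T and B lymphocyte markers 7 fell against day 0 on each day, from means of 7.99 to 8.21 at day 0 to 7.24 to 7.43 at day 3 and 6.88 to 7.00 at day 7. After sham surgery their means were 7.28 to 7.61, and 3 of the 8 were lower there than at day 0. Set against day 56 sham, none was lower at day 3 (median -0.18) and 4 were lower at day 7 (median -0.51). Of 8 epithelial markers 1, Hopx, fell at day 3 and none changed at day 7. None of 7 endothelial markers passed against day 0, with means of 10.54 to 10.90 at day 0, 9.88 to 10.67 at day 3 and 10.34 to 10.72 at day 7. Against day 56 sham, with means of 10.57 to 11.18, 3 of the 7 were lower at day 3 (median -0.50) and 3 at day 7 (median -0.41). No erythroid precursor marker of 5 passed at day 3, and Slc4a1 rose at day 7. Heart muscle genes, none of 5 passing against day 0, were at 9.32 to 9.66 at day 0 and 8.31 to 9.01 at day 3. Against day 56 sham 2 of the 5 were lower at day 3 and 1 at day 7. No value in the table was 0, the lowest being 2.98, so no marker was listed at 0. The part of these cell types in the rise of the mitosis genes was not tested, and in whole tissue more dividing cells, more of these transcripts per cell and fewer other cells cannot be told apart.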

How the data were processed

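Biotin-labelled RNA of 21 right lung samples was hybridised to Affymetrix arrays, per the labels. The deposited values are log2 levels per probe set, which the authors computed with RMA (background correction, normalization between arrays and a summary over probes), per the submitters' processing notes. For RMA, the version is not given in the sources used here. Amplification from the 3' end is named in the labels' protocol; whether that fits this array design could not be settled. RMA shrinks differences of dim probe sets, so fold changes of low genes may be understated. Precision is limited by the few arrays. Values were used as deposited: 35556 probe sets, of which 21789 had 1 gene symbol, 1621 several and 12146 none. For the 999 genes with over 1 probe set the one with the highest mean was used. Correlations between arrays ran from 0.963 to 0.996 and no pair was identical. All 54 members matched a RefSeq gene ID.

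Additive terms for condition and region entered 1 model of all 21 arrays (limma 3.58.1, R 4.3.3, empirical Bayes, 12 residual degrees of freedom). A gene was called (passed) at a Benjamini-Hochberg adjusted p under 0.05 over all 19938 genes within a comparison. Errors after ± are standard errors of fitted log2 differences, and folds are powers of 2 of them. The replicate number of the labels' order stands for the region. Deviations from condition means correlated with a median of 0.34 over 63 pairs of the same region (57 over 0.1) and -0.24 over 126 pairs of other regions; since not every pair was over 0.1, the numbers were treated as region labels only, and whether animals were shared is unknown. The difference in early response used region by phase means. The region difference in the step from day 3 to day 7, added after seeing the data, used a fit with 8 residual degrees of freedom. The fit was run on simulated data with independent noise on each array and added shifts. That simulation cannot show how the fit behaves where samples share animals. All members may be named; array values are given for the 3 members of a role with the largest day 3 difference and for those that did not pass at day 3 or 7, and from other lists up to 3 passing genes are named. Members, lists, comparisons and alternatives were chosen with earlier results of these data known. Alternatives were no region term, the mean of probe sets, leaving out dim genes, a trended robust prior, centring, the lobes alone, only the 6 arrays compared, leaving out the arrays that stood apart, and leaving out each array. Promoters came from a RefSeq table of build GRCm38.p6, and promoters on chromosome 18 were not printed.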

Additional observations from a re-analysis of the deposited data

Results flagged for a closer look

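The step from day 3 to day 7, read from 1 array per region and day, ran in opposite directions in the regions. Region cannot be told apart there from differences between single samples or arrays. The median of the 54 members, day 7 minus day 3, was 0.38 in the medial lobe, -0.78 in the cardiac lobe and -0.44 in the whole lung, while the medians of all genes were 0.01, 0.01 and -0.01. A fit chosen after these values were seen took the spread from the other 5 conditions, so it is no independent support for them. In that fit the step differed between the medial and cardiac lobes for 21 of 54 members (0.371% of all genes called higher, limma). An unadjusted p under 0.05 was found there for 17.8% of all genes. Between the medial lobe and the whole lung the step differed for no member (0.0201% of all genes). In that comparison 43 members and 3.88% of all genes had an unadjusted p under 0.05. The cardiac lobe value rests on the day 7 array with the interquartile range of 3.55, whose part in it was not tested; the other 2 values do not use that array. Macrophage markers, read as the mean difference from day 0, went from 0.97 at day 3 to 0.09 at day 7 in the medial lobe, from 0.94 to 0.88 in the cardiac lobe and from 1.72 to 0.36 in the whole lung, and their part was not tested either.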

How the results depend on the processing

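No member's difference from day 0 at day 3 or 7 changed sign under any alternative. Member counts under alternatives, here and above, are given without the share of all genes called in the same fit. In the whole lung against the lobes 1 member passed as higher without the arrays that stood apart, and the uncalled median early response of the whole lung against the lobes, 0.06, was then -0.12. Leaving out genes below the median level left 17 members to test and gave 15 at day 3 and 14 at day 7 against day 0, 16 at day 3 and 16 at day 7 against sham, 10 at day 14 against day 7, 2 between whole lung and lobes and 16 in the F test; fewer members were tested there. The lobes alone, with fewer arrays, gave 14, 23, 32, 24, 0 and, in the F test, 28, in the same order of comparisons without that of the whole lung. Only the 6 arrays compared gave 34 at day 3 and 12 at day 7 against day 0, 28 at day 7 against sham, 0 at day 14 against day 7 and 1, lower, at day 28 against day 14. Centring gave 13 at day 14 against day 7 and 9 between whole lung and lobes, and leaving out the pair of arrays that stood apart gave 8 there; the cause was not tested. Without the replicate block, that is the region term, 49 members passed at day 3 and 36 at day 7 against day 0, 51 and 40 against sham, and 0 at day 14 against day 7; it moved no other member count. The step from day 3 to day 7 gave 1 member between the medial and cardiac lobes without genes below the median level, where fewer were tested.

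Leaving out 1 array at a time gave 45 to 53 members at day 3 and 26 to 48 at day 7 against day 0, 50 to 53 and 30 to 48 against sham, 0 to 13 at day 7 against day 3, 0 to 19 at day 14 against day 7, 2 to 23 between whole lung and lobes and 50 to 54 in the F test. For the step from day 3 to day 7 it gave 19 to 38 between medial and cardiac lobe and 0 to 1 between medial lobe and whole lung, with arrays of days 3 and 7 not left out there since each is the only one of its region; the remaining comparisons gave 0. The day 7 count was 26 without the day 0 cardiac lobe and 29 without the day 0 whole lung, and against sham 30 without the sham cardiac lobe. Dim signal limits the 37 members below the median level, all of which rose at day 3.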
